A study of Mus musculus with 8 samples.

Results

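Wt1, Tcf21, Foxc1, Foxc2, Lmx1b and Dach1 encode transcription factors known from podocytes, the epithelial cells that form the filtration slits of the glomerulus. These 6 genes, out of 21631 protein-coding genes on autosomes and chromosome X, were taken by name, and each was described by the peaks whose summit lay in its RefSeq span or within 50 kb of it. Binding of Mta2, Mbd3 and Zbtb7a had been mapped by chromatin immunoprecipitation with sequencing in kidney cortex of 2-month-old mice. All 8 libraries, 2 each for Mta2, Mbd3, Zbtb7a and Input chromatin, came from animals of genotype Mta2flx/flx, in which the Mta2 alleles carry loxP sites. The same 2 source numbers recur in the sample titles of every group, so the groups share their sources. The labels name no Cre driver for these animals. The deposited data were 3 peak lists, 1 for each factor and standing for both of its libraries, so no value per mouse, SD or n is available and no test over animals could be made. A place without a peak did not reach the authors' cut-off, which does not show that it was unbound. Depth per library was not analysed here.

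Wt1 is a zinc finger factor that podocytes keep expressing in adult life and that binds many slit diaphragm genes. Tcf21 is a basic helix-loop-helix factor needed for glomerular development, Foxc1 and Foxc2 are forkhead factors, Lmx1b is a LIM homeodomain factor whose loss causes nail-patella syndrome in humans, and Dach1 is a transcriptional cofactor of the dachshund family. Mta2 and Mbd3 belong to NuRD, a complex that remodels nucleosomes and removes acetyl groups from histones, and Zbtb7a is a zinc finger factor of the BTB family. Podocytes are a small part of the cortex, and a peak found in whole cortex cannot be assigned to any one cell type. The lists hold no RNA level, so the tissue could be checked only by occupancy at gene starts. All 5 proximal tubule markers, Lrp2, Cubn, Slc34a1, Slc5a2 and Aqp1, carried a summit of every factor there, as did 63.7% of all protein-coding genes. So did both markers of the thick ascending limb, Umod and Slc12a1, and all 3 of endothelium. Of 4 podocyte markers, Mta2 and Zbtb7a had a start summit at all 4, and Mbd3 at 3, without Nphs1. Among 6 genes of other tissues, start summits of Mta2 were found at 2 and those of the other factors at 1, Ins2.

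All 6 genes had a peak of each factor over the start of the gene. The start was the site in the RefSeq promoter table for Tcf21, Foxc1, Lmx1b and Dach1, and the lower end of the span for Wt1 and Foxc2, taken after its peaks were seen because it was the occupied end. A peak interval of Mta2 covers a start in 64.7% of all protein-coding genes, one of Mbd3 in 62.5% and one of Zbtb7a in 62.3%. By the narrower rule of a summit within 1 kb of the start, the count was 5 of 6 genes for Mta2 (67.7% of all genes), 6 of 6 for Mbd3 (66.3%) and 5 of 6 for Zbtb7a (66.5%). Dach1 missed for Mta2 and Zbtb7a because the summits of its wide start peaks lay beyond 1 kb. For genes without an entry in the promoter table, either end counted as a start.

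The 250 bases before the start are printed for the 4 genes with a promoter entry because start summits fall inside them. Those are the summits of every factor at Foxc1, Tcf21 and Lmx1b, and that of Mbd3 at Dach1. The printed bases are from RefSeq (GRCm38.p6), read 5′ to 3′ on the gene's own strand, and capitals mark every CG dinucleotide. The Foxc1 window is chr13:31806396-31806645 on the plus strand, and on the minus strand lie those of Lmx1b at chr2:33641099-33641348, Dach1 at chr14:98169766-98170015 and Tcf21 at chr10:22820144-22820393.
Foxc1: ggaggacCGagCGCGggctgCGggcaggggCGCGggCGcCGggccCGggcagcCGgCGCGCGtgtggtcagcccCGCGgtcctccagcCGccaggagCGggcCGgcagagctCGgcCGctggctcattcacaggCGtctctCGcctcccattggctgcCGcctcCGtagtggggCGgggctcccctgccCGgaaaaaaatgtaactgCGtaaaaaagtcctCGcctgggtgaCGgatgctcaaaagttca
Lmx1b: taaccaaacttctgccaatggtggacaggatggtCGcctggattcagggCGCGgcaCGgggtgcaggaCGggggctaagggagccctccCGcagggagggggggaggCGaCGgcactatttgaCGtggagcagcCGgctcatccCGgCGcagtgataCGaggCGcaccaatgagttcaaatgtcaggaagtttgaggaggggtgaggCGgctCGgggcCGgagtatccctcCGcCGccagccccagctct
Dach1: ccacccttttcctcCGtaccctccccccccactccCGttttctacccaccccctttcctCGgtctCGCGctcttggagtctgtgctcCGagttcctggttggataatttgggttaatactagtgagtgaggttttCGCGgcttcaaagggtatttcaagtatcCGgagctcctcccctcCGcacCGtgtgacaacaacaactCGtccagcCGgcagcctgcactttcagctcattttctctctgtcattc
Tcf21: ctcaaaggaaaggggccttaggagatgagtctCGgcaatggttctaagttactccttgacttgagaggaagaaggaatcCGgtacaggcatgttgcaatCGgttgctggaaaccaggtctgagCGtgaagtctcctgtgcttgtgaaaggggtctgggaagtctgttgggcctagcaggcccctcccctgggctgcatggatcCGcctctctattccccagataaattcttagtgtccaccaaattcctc

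The Foxc1 window held 29 CG dinucleotides and was 70.8% G or C, that of Lmx1b held 19 (65.2%), that of Dach1 13 (54.8%) and that of Tcf21 5 (52.4%). Among 32575 such windows in the promoter table the median was 6 CG and 52.4% G or C, so that Foxc1 stood at the 94.0th percentile for CG and Tcf21 at the 49.4th. The GC box GGGCGG, searched on both strands and present in 32.9% of all windows, occurred once, in Foxc1, with its first base 79 bp before the start. The Mta2 and Mbd3 summits at Foxc1 lay 74 and 83 bp before the start. CCCTTCCC, the core of the Zbtb7a site in the gamma-globin promoter, is in 4.49% of windows on either strand and in none of these 4. A match of letters is a description and not evidence of a site.

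Foxc1 carried the strongest peaks at its own start (chromosome 13, gene span 31806646 to 31810635). The Mta2 peak, 31805960 to 31808973, had a fold of 35.3, the authors' ratio of signal over background at the summit. It ranked 2122nd of 149855 Mta2 peaks, the 98.6th percentile of that list. The Mbd3 peak, 31805955 to 31808841, had a fold of 23.1 (rank 7321 of 134248, 94.5th percentile). The Zbtb7a peak, 31806156 to 31807333, had a fold of 17.9 (rank 13500 of 124616, 89.2nd percentile), with its summit 159 bp before the start. All 3 summits fall in the printed window. The Mta2 and Mbd3 intervals were 3014 and 2887 bp wide, wider than 99.2% and 99.4% of the intervals in their lists, and both ran past the middle of the gene. A further Zbtb7a peak of fold 6.15 had its summit 1617 bp inside.

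At Tcf21 (chromosome 10, 22817263 to 22820143) the start peaks were the weakest of the 6 genes for Mta2 and Zbtb7a. Mta2 had a fold of 6.68 (60.6th percentile), with the summit 16 bp before the start. Mbd3 had a fold of 4.33 (42.8th percentile) and Zbtb7a a fold of 6.005 (58.6th percentile), and their summits lay 93 and 90 bp before it. The intervals also lie in Gm10824, a long noncoding RNA gene that spans Tcf21. The Zbtb7a interval was 277 bp wide and the Mta2 interval 1215 bp.

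Lmx1b (chromosome 2, 33560965 to 33641208) had start peaks with folds of 12.1 for Mta2, 6.76 for Mbd3 and 11.8 for Zbtb7a. In their lists these stood at the 79.5th, 63.2nd and 80.0th percentiles. The 3 summits lay within 20 bp of each other, 42, 36 and 22 bp before the start, the closest agreement among the 6 genes. The noncoding gene C130021I20Rik begins or ends in the same interval, so the peaks cannot be given to Lmx1b alone.

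Wt1 (chromosome 2, 105126529 to 105173614) adjoins the noncoding antisense gene Wt1os, whose span ends 19 bp below that of Wt1. Zbtb7a peaked 79 bp above this end, with a fold of 11.6 (79.5th percentile, 105126300 to 105127455). The single Mta2 peak had its summit 659 bp above the end, with a fold of 9.91 (73.8th percentile). Mbd3 had a pair of peaks there, with a fold of 3.42 at 62 bp (28.0th percentile) and of 7.75 at 684 bp (68.1st percentile). The summits of the Mta2 peak and of the stronger Mbd3 peak thus lay apart from that of Zbtb7a, although the intervals joined into 1 region of 1461 bp.

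Foxc2 (chromosome 8, 121116171 to 121118895) had a Mta2 peak of fold 15.2 (85.4th percentile, 121115262 to 121118367) at its lower end. The interval of 3106 bp reached over most of the gene. Mbd3 and Zbtb7a had folds of 8.11 (69.4th percentile) and 7.65 (67.2nd percentile) in intervals of 1120 and 1094 bp. The summits lay 10 bp below, 21 bp above and 2 bp below the end for Mta2, Mbd3 and Zbtb7a.

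Dach1 (chromosome 14, 97786846 to 98169765) had the widest start region, 4228 bp. The Mta2 interval, 98166623 to 98170159, was 3537 bp wide and the Zbtb7a interval, 98166709 to 98170302, 3594 bp, at the 99.5th and 99.8th percentiles of width. Their summits lay inside the gene, 1403 and 1390 bp past the start, with folds of 15.6 and 11.1. The Mbd3 list divided the same stretch into a peak of fold 9.60 at 80 bp before the start and one of fold 11.4 at 1381 bp past it. All 3 factors thus had a summit at nearly the same place inside the gene, and Mbd3 had a further one at the start.

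**Figure D1:**
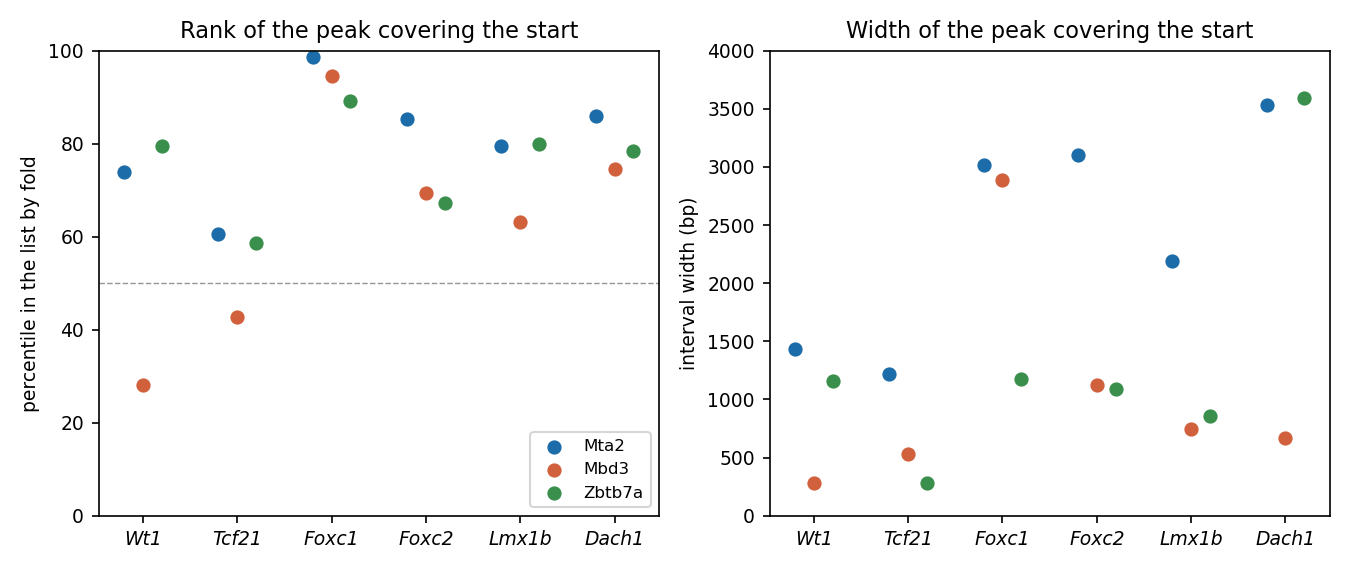
Within-list percentile by fold (left) and width in bp (right) of the peak that covers the start of each gene, 1 point per factor. The Foxc1 points lie highest, at the 98.6th, 94.5th and 89.2nd percentiles, and the Mbd3 point of Wt1 is the weaker of its pair of peaks there, at the 28.0th. The dashed line marks the middle of each list.

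With the starts included, the windows of the 6 genes held 100 Mta2, 76 Mbd3 and 70 Zbtb7a summits. Each of the 6 had at least 1 of every factor. Over all protein-coding genes, 90.6% had a Mta2 summit in the window, 90.1% one of Mbd3 and 89.7% one of Zbtb7a. Dach1, at 382.92 kb by far the longest span, held 37, 33 and 23 of them, and Tcf21 the fewest, 10, 3 and 5. Wt1 had 14, 12 and 8, Foxc1 12, 10 and 11, Foxc2 16, 10 and 12, and Lmx1b 11, 8 and 11. Per 100 kb of window, the 6 genes had a median of 9.62 Mta2 summits, 7.50 Mbd3 summits and 5.77 Zbtb7a summits. The medians over all protein-coding genes were 8.78, 7.85 and 7.35. Foxc2 had the densest window, with 15.6 Mta2 summits per 100 kb (77.6th percentile of genes), and Tcf21 the sparsest for Mbd3, with 2.92 (24.8th percentile). The Foxc2 window is shared with other genes. Foxc2 was the nearest protein-coding gene for only 2 of the 16 Mta2, 3 of the 10 Mbd3 and 3 of the 12 Zbtb7a summits.

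**Figure D2:**
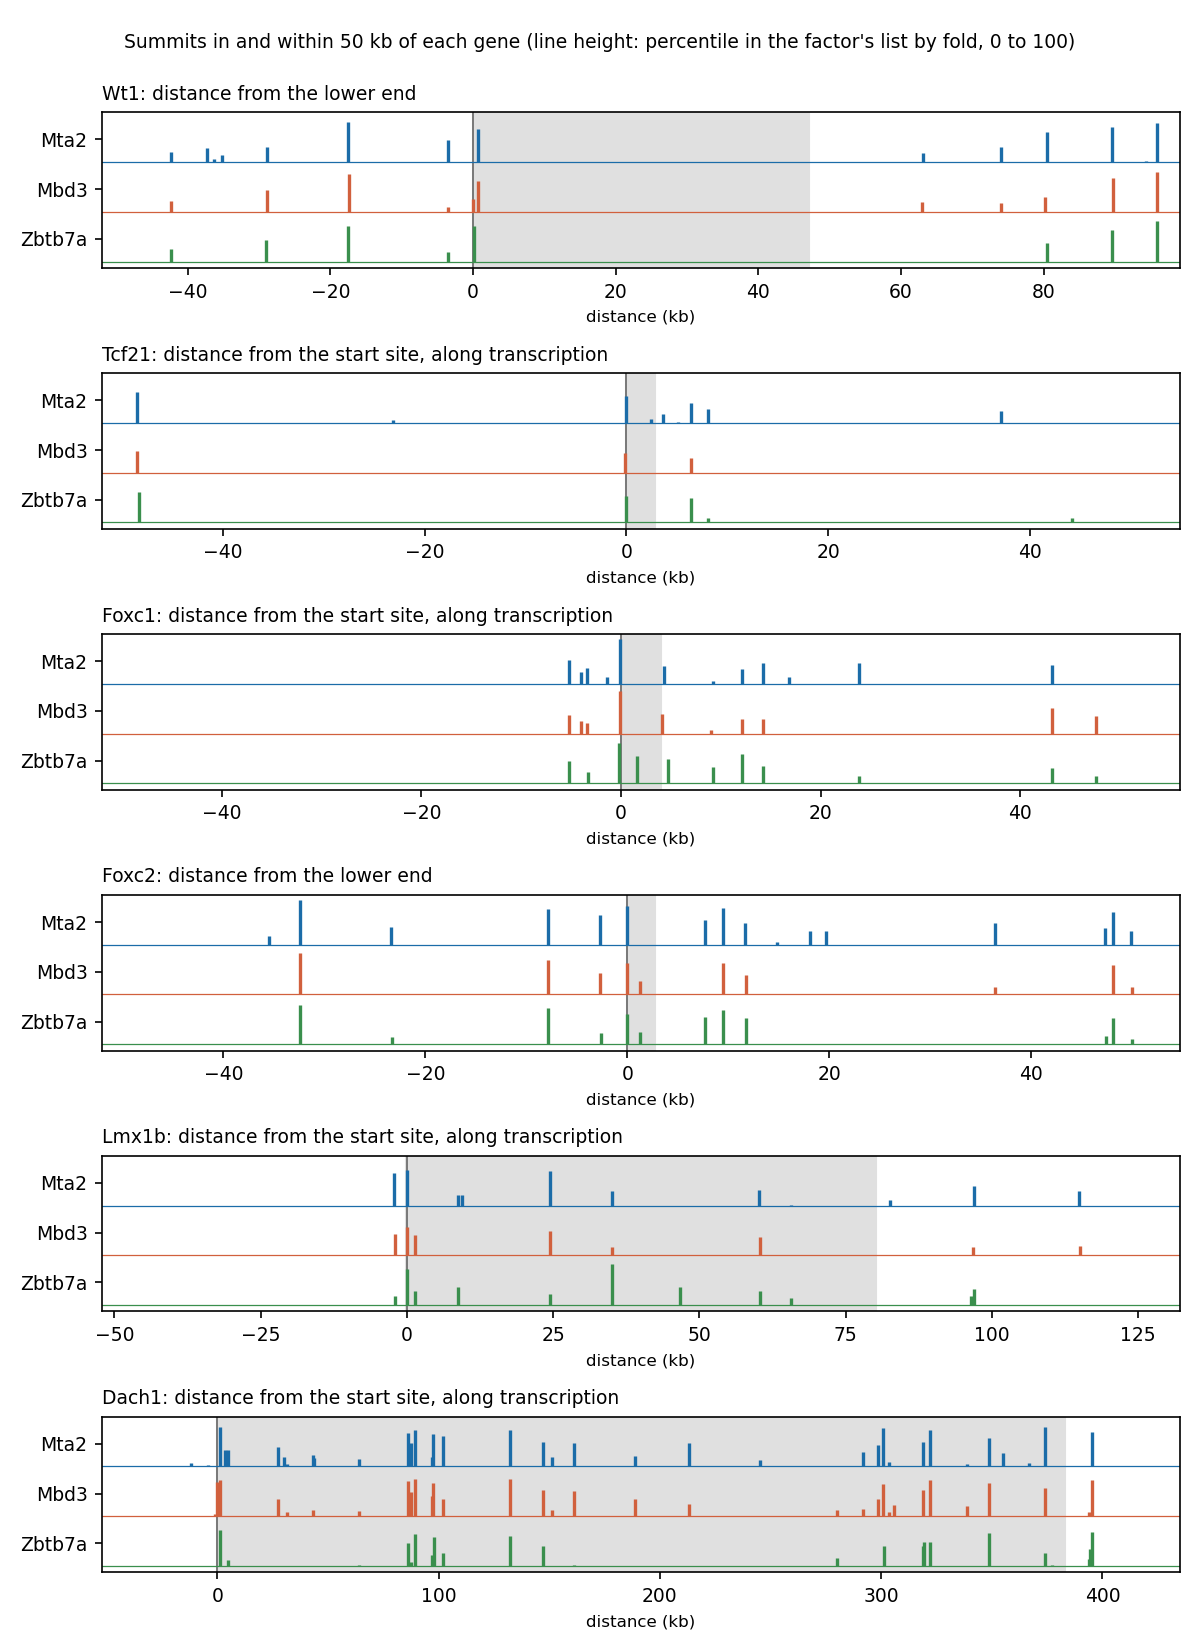
Summits of each factor by distance in kb from the start site, or from the lower end for Wt1 and Foxc2, with the gene span in grey. Line height gives the percentile of the peak in its own list by fold, from 0 to 100. Wt1 has no summit in its span beyond 0.684 kb, while the Dach1 span holds 34 Mta2, 29 Mbd3 and 20 Zbtb7a summits.

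The span of Wt1 held no summit of any factor other than those within 1 kb of its lower end. From there the next was a Mbd3 summit of fold 2.02 at 61.8 kb, beyond the upper end. The strongest Wt1 peaks flanked the gene. The first of them lay 17.5 kb below the lower end, within Wt1os (105108744 to 105109396 for Mta2), with folds of 16.6 for Mta2, 13.5 for Mbd3 and 11.7 for Zbtb7a. In their lists these were at the 87.4th, 83.9th and 79.8th percentiles. The other lay 48.8 kb above the upper end, with folds of 16.0, 16.6 and 19.5 (86.6th, 88.6th and 90.7th percentiles), and one more at 89.6 kb from the lower end had folds of 11.3, 9.87 and 8.45. All 3 of these regions carried every factor. The nearest protein-coding gene to the pair above Wt1 was Them7, not Wt1.

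Lmx1b had 7 Mta2, 5 Mbd3 and 8 Zbtb7a summits inside its span, the start included. The strongest Zbtb7a peak of the window was not at the start but 35.1 kb into the gene (33605062 to 33606253), with a fold of 19.5 (rank 11644, 90.7th percentile). At this place Mta2 had a fold of 3.75 (32.3rd percentile) and Mbd3 a fold of 3.02 (19.0th percentile), both in narrower intervals. At 24.4 kb into the gene Zbtb7a was the lowest of the 3 by percentile, with folds of 10.4 for Mta2 (75.3rd percentile), 5.32 for Mbd3 (52.9th) and 3.34 for Zbtb7a (24.6th). A region 2.16 kb before the start had folds of 9.07, 4.73 and 3.11. Whether such differences exceed those between mice cannot be measured from these lists. The annotation used here gives no exons, so these places are known only to be inside the gene.

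Inside Dach1 the summits formed groups. Between 86 and 102 kb from the start lay 6 regions with all 3 factors, the strongest at 89.6 kb with folds of 12.3 for Mta2, 12.3 for Mbd3 and 8.45 for Zbtb7a. At 132 kb the folds were 12.03, 12.09 and 7.25. Towards the far end, regions at 301, 322 and 374 kb had Mta2 folds of 15.4, 12.5 and 16.9. The last was the strongest Mta2 peak of the Dach1 window (rank 18139, 87.9th percentile), and Zbtb7a had a fold of 3.45 there (28.4th percentile) and Mbd3 6.82 (63.3rd percentile). Between these groups, a stretch of 139 kb (97869068 to 98008242) had no region with all 3 factors, although it held 5 Mta2, 6 Mbd3 and 1 Zbtb7a summits. Beyond the far end, 12.3 kb past the gene, a further region had folds of 10.95, 11.9 and 9.56.

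Most other peaks of the short genes lay in the flanks. Inside Foxc2, past its start peaks, were a Mbd3 summit of fold 3.50 at 1311 bp and a Zbtb7a summit of fold 3.35 at 1291 bp, and inside Tcf21 a Mta2 summit of fold 2.68 at 2443 bp. Around Foxc2 the strongest peak of each factor lay 32.4 kb below the gene, in an interval that overlaps both the noncoding gene Fendrr and the forkhead gene Foxf1 (121081929 to 121085921 for Mta2). Its folds were 38.9 for Mta2 (rank 1328, 99.1st percentile), 19.3 for Mbd3 (91.6th) and 15.1 for Zbtb7a (85.8th). Foxf1 is nearer to that peak than Foxc2 is. Closer to Foxc2 were regions 7.8 kb below it, in an interval that overlaps an end of Mthfsd, with folds of 12.2, 10.4 and 11.7, and 9.5 kb above the lower end, between Foxc2 and Foxl1, with folds of 13.1, 8.33 and 10.1. Of the Foxc2 summits, 3 for Mta2, 2 for Mbd3 and 3 for Zbtb7a lay inside another protein-coding gene.

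Outside its start, no Mta2 peak around Foxc1 exceeded a fold of 5.60, no Mbd3 peak 5.84 and no Zbtb7a peak 7.12. The last lay 12.1 kb past the start, where Mta2 and Mbd3 had folds of 3.75 and 3.62. Within Gmds, the next gene downstream, lay 4 Mta2, 3 Mbd3 and 4 Zbtb7a summits. Around Tcf21 the strongest peaks lay 48.5 kb before the start, close to the window's edge, with folds of 8.14 for Mta2 (67.6th percentile), 4.73 for Mbd3 (47.5th) and 7.78 for Zbtb7a (68.0th). A region 6.37 kb past the start, within Gm10824, had folds of 4.59, 3.62 and 5.34.

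The limit of 50 kb matters most for Wt1 and Tcf21. At Wt1 the last peaks inside it had folds of 16.0 for Mta2, 16.6 for Mbd3 and 19.5 for Zbtb7a, and the nearest peaks outside, 50.7 kb from the gene for each factor, had folds of 23.1, 17.5 and 38.7. At Tcf21 the nearest outside, between 52.7 and 53.0 kb away, had folds of 5.42, 3.52 and 3.34, and stronger peaks followed farther out, within 100 kb.

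The strongest peak within 50 kb was set beside that of protein-coding genes in general. Of the 6 genes, 2 had a Mta2 peak among the strongest 10% of its list in the window, against 62.4% of all genes. They were Foxc1 and, through the peak nearer to Foxf1, Foxc2. With Mbd3 there were the same 2, in the same regions (59.9% of all genes). For Zbtb7a there were Wt1, through the peak nearer to Them7, and Lmx1b (59.2%). Within 1 kb of the start, Foxc1 alone had a peak of that size, for Mta2 and Mbd3, against 24.1% and 22.3% of all genes, and no gene had one for Zbtb7a (24.1%). The strongest fold had a median of 16.7 (Mta2), 14.4 (Mbd3) and 16.5 (Zbtb7a), against 22.6, 21.0 and 22.6 over all genes. For Mta2 the order from the top was Foxc2 at 38.9, Foxc1 at 35.3, Dach1 at 16.9, Wt1 at 16.6, Lmx1b at 12.1 and Tcf21 at 8.14. Foxc2, through the peak nearer to Foxf1, and Foxc1 stood at the 89.1st and 83.5th percentiles of genes. The other 4 stood between the 17.6th and 33.4th. For Mbd3 the order was Foxc1, Foxc2, Wt1, Dach1, Lmx1b and Tcf21, from 23.1 down to 4.73. For Zbtb7a, Wt1 and Lmx1b were level at 19.5, followed by Foxc1 at 17.9, Foxc2 at 15.1, Dach1 at 11.1 and Tcf21 at 7.78. Tcf21 was lowest for every factor within 50 kb, and this depends on the window. Within 100 kb its strongest peaks stood at the 98.0th (Mta2), 98.6th (Mbd3) and 96.0th (Zbtb7a) percentiles of the lists, and for Mbd3 that was the highest of the 6 genes. Those of Wt1 stood at the 97.4th, 98.3rd and 98.6th. Without a spread between mice, none of these orders can be said to separate neighbours.

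**Figure D3:**
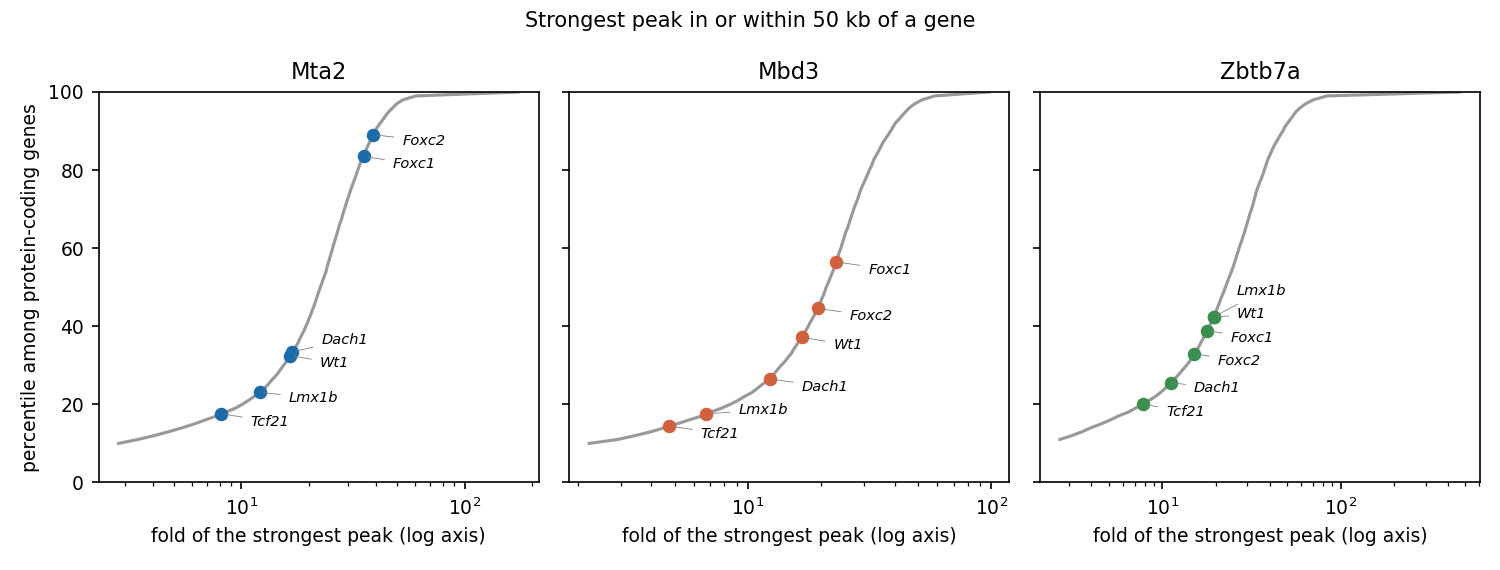
Fold of the strongest peak in or within 50 kb of a gene (log axis) against its percentile among 21631 protein-coding genes. The grey line is the distribution over all genes with a peak, and points are the 6 genes. For Mta2, Foxc2 and Foxc1 stand at the 89.1st and 83.5th percentiles and the other 4 genes at or below the 33.4th, while for Zbtb7a no gene is above the 42.4th. The Foxc2 points are peaks nearer to Foxf1.

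Peaks of the 3 lists that shared at least 1 bp were merged into regions. The 6 windows held 109 regions, of which 50 (45.9%, exact Clopper-Pearson 95% interval 36.3 to 55.7) carried all 3 factors. Over the whole series the share was 61.4% of 164813 regions. The interval covers counting error only, and regions of a locus are not independent. Of the other regions, 26 had Mta2 alone, 15 Mta2 with Mbd3, 8 Mta2 with Zbtb7a, 4 Mbd3 alone, 3 Zbtb7a alone and 3 Mbd3 with Zbtb7a. In the same order, the counts among the 164813 regions of the series were 23165, 17832, 5950, 6889, 7203 and 2622. Foxc1 had the highest share with all 3 factors, 8 of 13 regions, and Tcf21 the lowest, 3 of 11, with 6 regions of Mta2 alone. Their exact 95% intervals, 31.6 to 86.1% and 6.02 to 61.0%, overlapped. Dach1, with 17 of 42, held 10 of the 15 regions of Mta2 with Mbd3, and without Dach1 the share was 49.3%. Peaks pooled over the 6 genes had lower median folds than the lists as a whole. These were 3.96 against 5.21 for Mta2, 4.13 against 5.02 for Mbd3 and 4.17 against 5.00 for Zbtb7a. Dach1 held 37, 33 and 23 of the pooled peaks. By gene, Zbtb7a medians were above that of the list at Wt1 (6.62), Foxc2 (5.95) and Tcf21 (5.34), as was the Mbd3 median at Foxc2 (5.98). All other medians by gene were below that of their list. The part of peak strength in the lower share was not tested. With a fold of at least 5 required of every peak, 47.6% of 42 regions had all 3 factors, against 63.7% over the series.

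**Figure D4:**
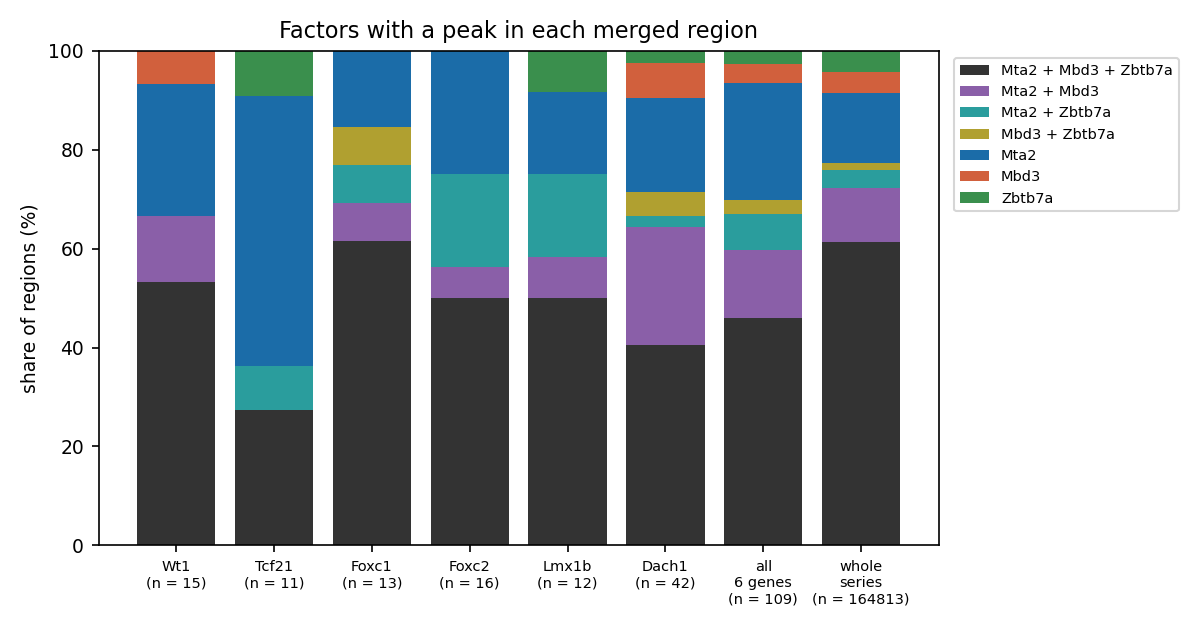
Share of merged regions (%) by the factors with a peak in them, for each gene, for all 6 genes and for the whole series, with the number of regions in brackets. All 3 factors (dark) make up 27.3% of regions at Tcf21, 61.5% at Foxc1 and 61.4% in the whole series.

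Around the 6 genes, peaks found for 1 factor alone had lower median folds than peaks in regions with all 3, and their ranges overlapped. Mta2 peaks without either other factor had a median fold of 2.87 and none above 3.65. The median was 7.78 for Mta2 peaks in regions with all 3. For Mbd3 the medians were 2.26 over 4 unshared peaks and 5.33, and for Zbtb7a 2.76 over 3 unshared peaks and 4.99. The same medians over the whole lists were not computed. The strongest unshared Zbtb7a peak had a fold of 4.11, while peaks in regions with all 3 factors went down to 2.50 for Mta2, 2.54 for Mbd3 and 2.26 for Zbtb7a. Outside regions with all 3 factors, the strongest Zbtb7a peak had a fold of 6.23 and the strongest Mta2 peak a fold of 5.63. Both lay 7.7 kb above the lower end of Foxc2. No such Mbd3 peak was above a fold of 4.03. Of the 50 regions with all 3 factors, 20 had every factor above the middle of its list. They comprised 9 of 17 at Dach1, 5 of 8 at Foxc2, 4 of 8 at Wt1, 1 of 8 at Foxc1, 1 of 6 at Lmx1b and 0 of 3 at Tcf21. In 6 regions every factor was at or above percentile 75 of its list. These were 2 at Wt1 and 2 at Foxc2 (the Foxf1 side and Mthfsd), the start of Foxc1 and the start of Dach1. The same shares over all regions of the series with all 3 factors were not computed. The counts of 20 and 6 therefore cannot be called high or low.

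**Figure D5:**
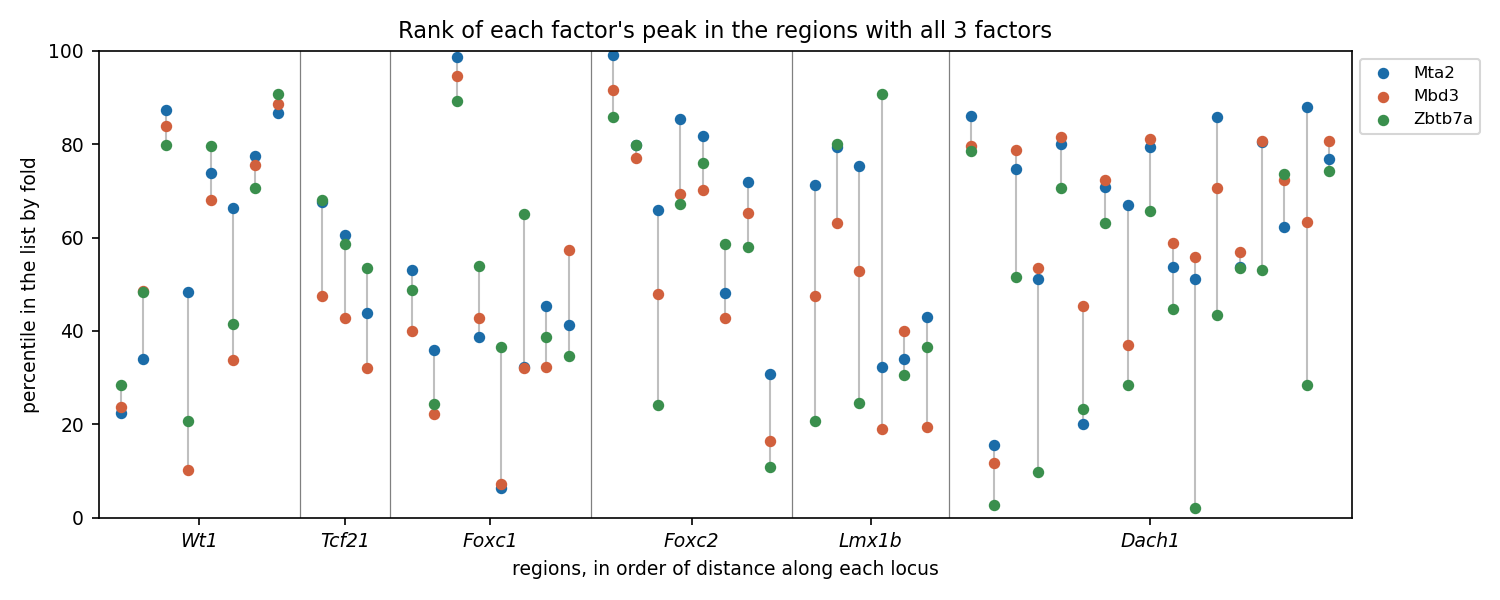
Within-list percentile by fold of each factor's strongest peak in the 50 regions that carry all 3 factors, in order along each locus, with a grey line joining the factors of a region. At the Foxc1 start the 3 points lie at the 98.6th, 94.5th and 89.2nd percentiles, while the region 35.1 kb into Lmx1b spans from the 19.0th (Mbd3) to the 90.7th (Zbtb7a).

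Other regulators of podocytes were set beside the 6 genes. Of 14 such genes, 12 had a summit within 1 kb of the start for each of the 3 factors, against 63.7% of all genes, and 9 had a Mta2 peak of the strongest 10% there, against 24.1%. The highest by Mta2 were Wwtr1, which encodes the Hippo coactivator TAZ, with folds of 43.7 for Mta2, 40.0 for Mbd3 and 77.45 for Zbtb7a, and the Notch target Heyl, with folds of 40.6, 32.5 and 69.8. Klf15 and the glucocorticoid receptor gene Nr3c1 had no summit within 1 kb of a start but 28 and 34 Mta2 summits in their windows. For each factor an interval covered the start of 13 of the 14 genes, so Klf15 and Nr3c1 cannot both lack one. Over all genes an interval covered the start in 64.7% for Mta2, 62.5% for Mbd3 and 62.3% for Zbtb7a. Of 13 genes of podocyte structure and signalling, 12 had a start summit of Mta2 (67.7% of all genes), 10 of Mbd3 (66.3%) and 12 of Zbtb7a (66.5%), and Plce1 had none. Podxl, the main sialoprotein of the podocyte surface, was highest by Mta2, with folds of 33.7, 23.1 and 40.6. Col4a3 and Col4a4, which share a promoter, came next by Mta2 with the same peaks, of folds 32.2, 33.4 and 38.0, the Mbd3 value being above that of Podxl.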

How the data were processed

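Chromatin from kidney cortex of 2-month-old mice was crosslinked with 2 mM disuccinimidyl glutarate and 1% formaldehyde and sheared to 100 to 1000 bp, and libraries were read from both ends at 100 M reads each, per the labels' protocols. Bowtie2, deepTools, MACS2, bedtools and the mm10 build were used, per the submitters' processing notes, while versions, settings and how the 2 libraries of a group were combined are not stated there or in the labels. The 3 deposited lists have the narrowPeak layout. They give for each peak a fold, the authors' ratio of signal over background at the summit, a deposited −log10 p and −log10 q value, a summit offset in bp, and a deposited score that was not used. Fold takes repeated values, so ranks can tie.

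Peaks on autosomes and X were used, leaving out 143 Mta2, 156 Mbd3 and 80 Zbtb7a peaks on Y. Positions are 1-based. Percentiles give the share of a list with an equal or lower fold, and folds were ranked only within a list. RefSeq gave gene spans on GRCm38.p6, the assembly behind mm10, and start sites in its promoter table, which held 17274 of 21631 protein-coding genes. For the others either end counted. Counting was tested on simulated data, where 200 of 200 genes came back as planted. Analyses used Python 3.11.15, pandas 2.3.3 and scipy 1.17.1.

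The genes and lists were chosen with earlier results of these data known. Named were the 6 genes with the strongest peak per list, and from each other list the genes with no start summit and the 2 with the highest Mta2 percentile at the start. As no list has replicates, no test was made. Alternatives were stricter peaks, other windows, other overlaps and ranking by −log10 q. Counting intervals that cover the start was added after seeing the data. Input libraries were not analysed here.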

Additional observations from a re-analysis of the deposited data

How the results depend on the processing

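The count of summits around the 6 genes depends on the threshold and the window. With a −log10 q of at least 10 it fell to 56 for Mta2, 45 for Mbd3 and 39 for Zbtb7a, and with a fold of at least 5 to 37, 28 and 29. With windows of 100 kb it was 153, 122 and 109. With 10 kb windows it was 67, 55 and 48, and with only summits whose nearest protein-coding gene was 1 of the 6 it was 75, 60 and 52. Counting intervals in place of summits added 1 peak for each factor. The number of genes with a start summit ranged from 4 to 6 over all settings, among them 0.5 and 3 kb and intervals over the start, the last chosen after seeing the data. The share of regions with all 3 factors ranged from 41.3% (summits within 200 bp) to 50.6% (windows of 100 kb).

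The median percentile of the strongest peak was 87.7 (Mta2), 85.1 (Mbd3) and 87.5 (Zbtb7a). Ranked by −log10 q it was 83.8 for Mbd3 and 86.6 for Zbtb7a. With windows of 10 kb it was 82.4, 72.5 and 79.7, and with 100 kb 97.7, 93.1 and 89.9. The cause was not tested beyond the wider or narrower windows and fewer peaks that these settings bring by construction. No paired analysis was possible because each list stands for both libraries of its factor and carries no replicate values, and for the same reason no replicate could be left out. Depth limits every statement on a missing peak.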

Other observations

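Of 11 relatives and neighbours of the 6 genes, 10 had a start summit of Mta2 (67.7% of all genes), 10 of Mbd3 (66.3%) and 9 of Zbtb7a (66.5%). The highest by Mta2 were Foxf1, through the peak already described near Foxc2, and Foxq1, a forkhead gene on chromosome 13, with folds of 33.2 for Mta2, 22.9 for Mbd3 and 21.9 for Zbtb7a. Of the paralogues of Lmx1b and Dach1, named here after their values were seen, Lmx1a had start folds of 8.95, 5.64 and 9.50. Dach2 had a single summit of each factor in its window, all at the start, with folds of 6.99, 6.65 and 14.0.

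For each of the 6 genes, the most alike protein-coding gene over 200 kb away was found by the smallest distance over 6 values. These were the summit count, on a log scale, and the percentile of the strongest peak among genes, for each of the 3 factors. The percentiles were not put on a log scale, so they weighed more than the counts. The most alike genes were Nrros for Wt1, Gm52666 for Tcf21, Ripor2 for Foxc1, Zfp366 for Foxc2, Zfp157 for Lmx1b and C1qtnf7 for Dach1. Counts of summits can differ within such a pair, as for Ripor2 with 38 Mta2 summits against 12 at Foxc1.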
